A study of Drosophila melanogaster with 2 samples.

Results

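This account is about 10 genes of Wnt signalling in the Drosophila melanogaster embryo, out of 13945 protein-coding genes on the 6 chromosome arms: the ligand genes wg, Wnt2, Wnt4, Wnt5, Wnt6, Wnt10 and wntD, the Frizzled receptor genes fz and fz2, and arm. They were chosen by name, with earlier results of these data known. Every peak with its summit in the gene body or within 20 kb of it was counted for the gene. Sloppy paired 2 (Slp2), a transcription factor of the forkhead family, was mapped on the genome by chromatin immunoprecipitation and sequencing (ChIP-seq) in 2 samples of whole embryos, both sexes together, aged 0 to 24 hours. Both samples, biological replicates 2 and 3, came from a single transgenic line of the strain 9T-GFP that carries Slp2 with green fluorescent protein (GFP) at its C terminus, and the labels give GFP as the target of the antibody in the description and slp2 in the antibody field. The promoter that drives the fusion is not given in the sources used here. There is 1 group and no untreated or untagged group among these lists, so the values below are set against all genes or all peaks of the same lists and not against another condition. Whole embryos of all ages were pooled, so strong binding in a few cells and weak binding in many cannot be told apart.

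Wnt ligands are secreted, lipid-modified proteins that bind Frizzled receptors and the co-receptor Arrow at the cell surface. In the canonical pathway this keeps the beta-catenin Armadillo from being destroyed, and Armadillo then enters the nucleus and activates genes together with the DNA-binding protein Pangolin (TCF). In the embryonic epidermis wg, the founding Wnt gene of the fly, is expressed in a stripe in each segment, and Sloppy paired proteins are known from genetics to be needed to keep that expression on.

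The stringent list of the authors, cut at a threshold of the irreproducible discovery rate (IDR), which compares peak ranks between replicates, held 3203 peaks. Longer relaxed lists, which hold peaks together with background, had 28637 peaks for the replicates pooled and 30000 for each of replicates 2 and 3. Each peak carries a signal value, which is the authors' own score and has no stated unit, and ranks below run from 1 for the strongest peak of a list. The IDR list was the 3203 strongest pooled peaks, so its signal values are pooled values without an error of their own, and the replicate ranks show the spread. Read depth is unknown from these lists. The labels list the samples as separate biosamples of the same line. At its own locus, the slp1 and slp2 genes had 6 and 7 IDR summits within 20 kb. Their windows overlap, so some summits were counted for both, among them the strongest, at rank 47 of the IDR list.

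The sequences at some of the summits are given here, each as 201 bases of the forward strand of dm6 centred on the summit. Capitals mark TAAACA, part of the forkhead site, or CTTTGAT, the core of the TCF site, TATCGATA, the site of the promoter factor DREF, or CAGGTA, part of the site of the early activator Zelda, on either strand. The pair at Wnt6 is shown because it was the only IDR binding at a start site of any of the 10 genes. The summits in fz are the strongest of the set and the one with the most forkhead letters. The Wnt4 and wg summits lie inside ligand genes. The Wnt4 summits shown hold marked letters, while the strongest Wnt4 summit, at 7262160, is not shown and holds none. The mRpL16 summit is 1 of the 4 near arm. The strongest of those, at CG14818, and the one at Edem1 hold none of the marked letters.
Wnt6 promoter, summit 337 bp upstream, chr2L:7333277-7333477: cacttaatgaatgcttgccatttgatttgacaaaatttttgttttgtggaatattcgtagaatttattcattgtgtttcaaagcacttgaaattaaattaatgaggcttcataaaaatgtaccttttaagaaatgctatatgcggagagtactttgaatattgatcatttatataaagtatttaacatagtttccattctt
Wnt6 promoter, summit 135 bp upstream, chr2L:7333479-7333679: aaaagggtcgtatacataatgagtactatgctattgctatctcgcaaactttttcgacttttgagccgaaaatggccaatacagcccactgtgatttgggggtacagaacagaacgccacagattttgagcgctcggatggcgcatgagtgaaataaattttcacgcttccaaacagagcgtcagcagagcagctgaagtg
wg, intron 3, chr2L:7313575-7313775: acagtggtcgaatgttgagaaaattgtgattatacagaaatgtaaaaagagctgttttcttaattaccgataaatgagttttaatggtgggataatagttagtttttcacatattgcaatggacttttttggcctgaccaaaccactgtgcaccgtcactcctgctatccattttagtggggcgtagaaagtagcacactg
Wnt4, intron 1, with CAGGTA, chr2L:7258180-7258380: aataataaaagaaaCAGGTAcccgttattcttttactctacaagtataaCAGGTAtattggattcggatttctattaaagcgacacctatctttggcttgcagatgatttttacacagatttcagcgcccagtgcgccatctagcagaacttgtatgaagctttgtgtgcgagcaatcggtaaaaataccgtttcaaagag
Wnt4, intron 1, with CTTTGAT, chr2L:7266014-7266214: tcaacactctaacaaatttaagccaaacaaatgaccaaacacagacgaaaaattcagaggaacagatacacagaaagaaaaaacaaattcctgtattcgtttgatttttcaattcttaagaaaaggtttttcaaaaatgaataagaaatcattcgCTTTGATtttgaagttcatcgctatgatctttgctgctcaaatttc
Wnt5, 1944 bp upstream, chrX:18507249-18507449: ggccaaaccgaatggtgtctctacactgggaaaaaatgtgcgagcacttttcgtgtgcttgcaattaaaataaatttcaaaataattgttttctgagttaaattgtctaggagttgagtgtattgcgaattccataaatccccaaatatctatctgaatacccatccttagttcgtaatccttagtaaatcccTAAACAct
fz, intron 1, strongest, chr3L:14303970-14304170: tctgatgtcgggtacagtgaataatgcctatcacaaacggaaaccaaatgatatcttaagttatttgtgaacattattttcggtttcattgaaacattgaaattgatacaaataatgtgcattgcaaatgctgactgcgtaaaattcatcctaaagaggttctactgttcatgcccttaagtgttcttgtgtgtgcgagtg
fz, intron 4, with TAAACA, chr3L:14366179-14366379: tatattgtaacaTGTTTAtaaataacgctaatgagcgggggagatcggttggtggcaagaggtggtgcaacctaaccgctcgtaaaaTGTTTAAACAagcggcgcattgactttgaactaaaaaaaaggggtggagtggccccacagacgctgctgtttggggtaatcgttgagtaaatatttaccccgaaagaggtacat
mRpL16 promoter, in the arm window, chrX:1890043-1890243: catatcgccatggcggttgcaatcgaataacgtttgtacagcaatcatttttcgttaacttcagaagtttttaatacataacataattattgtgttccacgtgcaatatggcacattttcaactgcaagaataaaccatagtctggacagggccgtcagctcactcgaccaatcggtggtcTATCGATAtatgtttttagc

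An IDR summit was found in the gene body or within 20 kb for 7 of the 10 genes, against 69.1% of all protein-coding genes, so the count was at the background. The genes with one were wg, Wnt4, Wnt5, Wnt6, Wnt10, fz and arm. Wnt2, wntD and fz2 had none. Most of these summits were not at the genes' own starts. Within 500 bp of an own transcription start site (TSS) there was an IDR summit for 1 gene, Wnt6, against 15.2% of all genes. For 5 genes, namely wg, Wnt4, Wnt5, Wnt6 and fz, some summit of the window had an own TSS as the nearest protein-coding TSS, against 17.0% of all genes. In the gene bodies alone, 3 of the 10 genes had one (wg, Wnt4 and fz), against 9.06% of all genes, and fz and Wnt4 are the genes of those 3 with long introns. The shares of all genes were not matched for gene length or for the spacing of neighbours, so these counts are not compared like for like.

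The windows held 20 distinct IDR summits. Of these, 11 lay in introns (55.0%, against 32.3% of all 3203), 6 at promoters within 500 bp of a TSS (30.0%, against 50.9%) and 3 in intergenic sequence (15%, against 15.3%). Of the intronic ones, 5 lay in fz and 3 in Wnt4, in long introns, and 4 of the promoter ones lay at neighbours of arm. The shares thus rest on few genes. No summit of the set lay in a coding exon, as did only 0.19% of all IDR summits. The nearest protein-coding TSS belonged to one of the 10 genes for 8 summits and to a neighbour for 12. The 20 summits were mostly weak ones of the list: 5 ranked in its stronger 50% and 1 among its strongest 500, with a median rank of 2085 where the median of the list is 1602. Their median signal value was 86.1, against 102.1 over the IDR list. Per Mb, the joined windows (614227 bp) held 32.6 IDR summits, against 23.9 over the arms, and 312.6 pooled summits, against 213.9. The windows are drawn around genes while the arms hold all sequence, so these densities are not compared like for like.

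**Figure D1:**
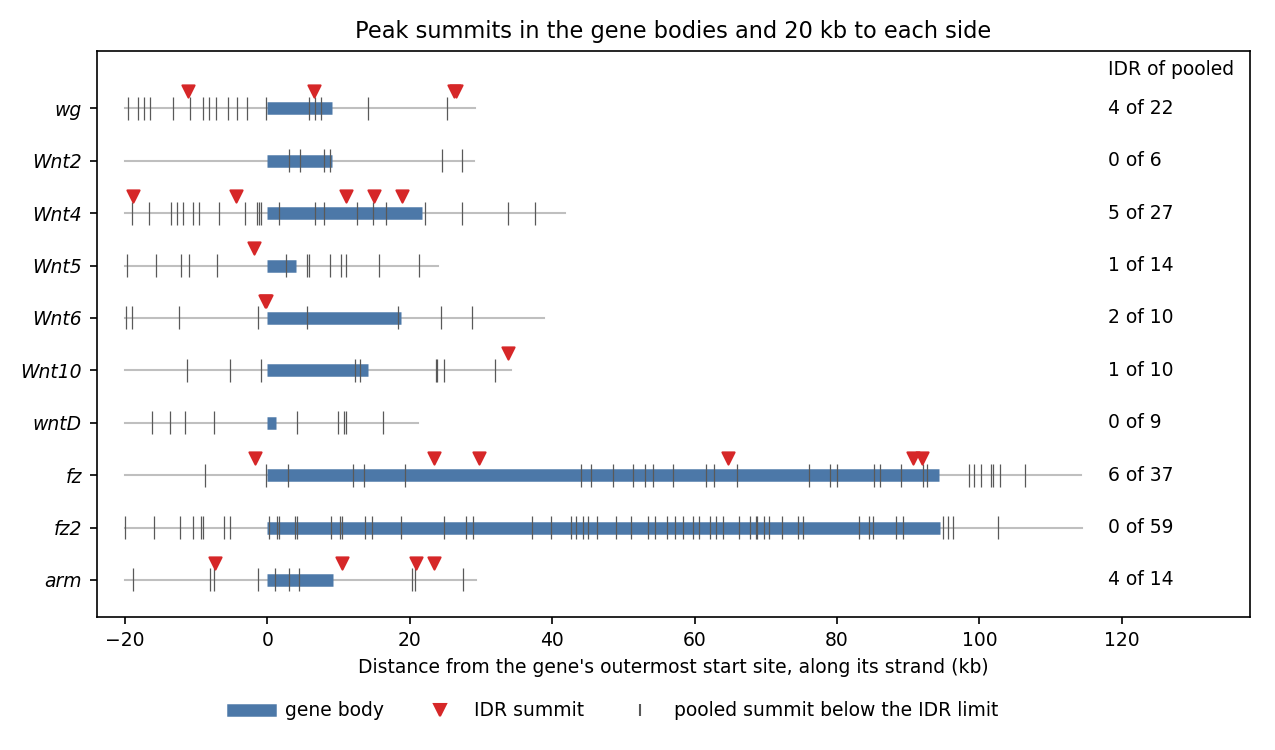
Position of every pooled summit in the window of each gene, in kb along the gene's strand from its outermost start site. Thick bars are gene bodies, thin lines the 20 kb to each side, red triangles IDR summits and grey ticks pooled summits below the IDR limit; fz had 6 IDR summits of 37 pooled ones, and fz2 had 0 of 59 over a window of nearly the same length.

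Among the ligands, Wnt4, wg, Wnt6 and Wnt10 stand in this order on arm 2L, with 29987 bp between Wnt4 and wg, 17448 bp between wg and Wnt6 and 10836 bp between Wnt6 and Wnt10. Their windows overlap, and 3 summits were counted for more than 1 of the genes. The joined stretch (2L, 7235419 to 7397528, 162110 bp) held 9 IDR summits, or 55.5 per Mb, against 24.7 per Mb over the arm. It held 53 pooled summits, 47 of replicate 2 and 52 of replicate 3. Of 12864 genes with windows within 20% of the same length, 12.7% had the 4 IDR summits of wg or more. These are most of the 13945 genes, since each window includes 20 kb to each side, so this share is scarcely matched for length. For the 5 of Wnt4 the share was 9.75% of 1487 genes, for the 2 of Wnt6 52.7% of 1931 and for the 1 of Wnt10 76.2% of 4106. The 9 ranked between 1318 and 2864 of 3203, so none was among the strongest of the list.

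The wg gene itself (2L, 7307159 to 7316265, forward strand) had a single IDR summit in its body, at 7313675 in intron 3, which is 1178 bp long. Its signal value was 38.8 (rank 3061) in replicate 2 and 35.6 (rank 2552) in replicate 3, and 76.1 (rank 2511 of the IDR list) in the pooled data. Both replicates thus placed this peak among their 3203 strongest, close to that limit. No IDR summit lay within 500 bp of the wg start, and the nearest to it was this one, 6516 bp downstream. A pooled summit within 500 bp of that start ranked 14112 of 28637, and one of replicate 2 ranked 12942, while replicate 3 listed none there.

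Upstream of wg, an intergenic IDR summit lay at 7296016, 11143 bp before the wg start. It had a signal value of 47.9 (rank 2113) in replicate 2 and 23.8 (rank 4780) in replicate 3, with 70.8 in the pooled data. The replicates differed here, with only replicate 2 ranking it among its 3203 strongest. It was also counted for Wnt4, whose body lies 18845 bp away. The remaining summits in the window of wg are those at the Wnt6 promoter, up to 17314 bp beyond the end of wg.

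Wnt6 encodes another ligand expressed largely in the pattern of wg. Its promoter had 2 IDR summits, at 7333377 and 7333579, only 202 bp apart and 337 and 135 bp upstream of its only annotated TSS, so that their intervals overlap. In replicate 3 each had its own summit, with signal values of 35.3 (rank 2588) for the outer and 27.7 (rank 3655) for the inner. Replicate 2 had a single peak there, 6 bp from the inner summit and 208 bp from the outer one, with a signal value of 52.7 (rank 1758). The pooled values were 87.1 for the outer and 70.3 for the inner. The replicates thus agree on a peak at this promoter, and they differ on whether it holds 1 summit or 2. The body of Wnt6 held no IDR summit.

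Wnt4, which lies on the reverse strand (2L, 7255419 to 7277171), had 3 IDR summits in intron 1, a stretch of 18099 bp that also holds the small gene CG31909. The summit at 7262160, which is 15011 bp downstream of the Wnt4 start, was the strongest of the 4 ligand genes of this stretch. Its signal value was 58.8 (rank 1443) in replicate 2 and 52.3 (rank 1422) in replicate 3, and 114.3 (rank 1318) in the pooled data. The 2 replicates gave it nearly the same rank. The summit at 7258280 ranked 3439 in replicate 2 and 2150 in replicate 3, and that at 7266114 ranked 1862 and 2816. For all 3 the nearest protein-coding TSS was that of CG31909, at 768, 4648 and 8602 bp. A further summit, at 7281631, lay 4460 bp upstream of the Wnt4 start, with ranks of 2135 in replicate 2 and 1547 in replicate 3. It was the IDR summit nearest to that start, and none of the lists had a summit within 500 bp of it.

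Wnt10 (2L, 7363379 to 7377528) had no IDR summit in its body. The only one in its window, at 7397186, lay 19658 bp beyond its end and 1564 bp from the TSS of CG5160, inside that gene. It had a signal value of 57.1 (rank 1530) in replicate 2 and 17.4 (rank 9801) in replicate 3, the widest gap in rank among the 20 summits. It was thus a strong peak in replicate 2 and a relaxed one in replicate 3.

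Wnt5, a ligand of the receptor Derailed in axon guidance, lies on X (18501401 to 18505405, reverse strand). It had a single IDR summit, at 18507349, 1944 bp upstream of its TSS and within an intron of the neighbour Ggt-1. Its signal value was 50.8 (rank 1894) in replicate 2 and 52.7 (rank 1400) in replicate 3, and 106.3 (rank 1494) in the pooled data. Both replicates ranked it among their 3203 strongest. At the Wnt5 start itself, within 500 bp, replicate 2 had a peak at rank 4280, and the pooled list and replicate 3 had none.

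Wnt2 and wntD had no IDR summit, and their relaxed peaks were weak as well. The window of Wnt2 (2R, 9494166 to 9503188), a ligand with roles in the testis, held 6 pooled summits, 3 of replicate 2 and 6 of replicate 3. The best of these ranked 12852 of the pooled list, 16459 in replicate 2 and 9419 in replicate 3, and none of the 6 pooled summits had a summit within 200 bp in both replicates. The window of wntD (3R, 13292052 to 13293198), which encodes an inhibitor of Dorsal signalling, held 9 pooled summits, of which the best ranked 10590, at the promoter of its neighbour apn. The nearest IDR summits lay 41777 bp from the body of Wnt2 and 27905 bp from that of wntD.

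The receptor genes fz and fz2 are of almost equal length, 94297 and 94399 bp, and had opposite counts. Frizzled acts in planar cell polarity and, with Frizzled 2, in the reception of Wingless. The fz gene (3L, 14274343 to 14368639) had 6 IDR summits and fz2 (3L, 19140975 to 19235373, reverse strand) had 0. Of the 128 genes with windows within 20% of theirs, 14.1% had 6 IDR summits or more and 28.1% had none, with a median of 2. The quartiles of those genes were 0 and 4, so the 6 of fz lay above the upper quartile and the 0 of fz2 at the lower one. The difference between fz and fz2 was not tested.

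The strongest peak of the set lay in intron 1 of fz, with its summit at 14304070, 29727 bp downstream of the start. Its signal value was 171.5 (rank 149) in replicate 2 and 138.6 (rank 207) in replicate 3, and 309.6 (rank 161 of the IDR list) in the pooled data. It was the only summit of the 20 among the strongest 500 of the IDR list. Another summit of intron 1, at 14297681, ranked 2304 in replicate 2 and 1754 in replicate 3. In intron 4, which is 49410 bp long and holds the gene CG13482, the summit at 14339094 ranked 1469 and 1365. Near the end of that intron, 1334 bp apart, the summit at 14364945 ranked 2037 and 3195 and that at 14366279 ranked 1487 and 2950. The nearest TSS to both was that of CG13481, at 4762 and 3428 bp, while for the summits at 14304070 and 14339094 it was that of CG13482, at 25276 and 9748 bp. These 5 intronic summits were thus among the 3203 strongest peaks of both replicates. The sixth summit, 1745 bp upstream of the fz start at 14272598, ranked 3385 in replicate 2 and 2326 in replicate 3. No IDR summit lay within 500 bp of the start of fz, where the best pooled summit ranked 17786.

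**Figure D2:**
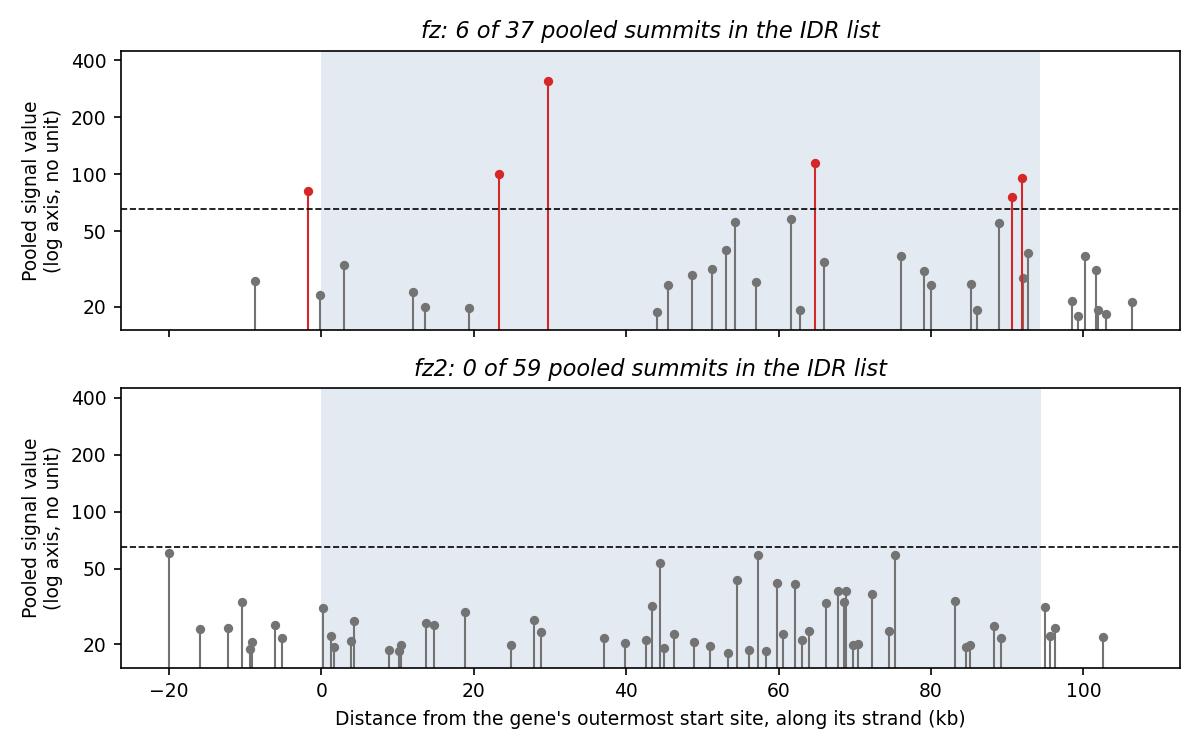
Pooled signal value (log axis, the authors' score with no unit) of each pooled summit against its distance in kb from the gene's outermost start site, for fz above and fz2 below. Shading is the gene body, the dashed line the weakest IDR signal (65.4), and red stems are IDR summits; the strongest fz summit reached 309.6, while the strongest in the fz2 window, at 60.7, stayed under the line.

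The fz2 window was not empty in the relaxed lists. It held 59 pooled summits, 439.0 per Mb, against 275.5 per Mb for fz and 221.4 per Mb over the arm. Of these, 7 ranked within the strongest 6406 pooled peaks, against 9 of 37 for fz, and 13 (22%) had a summit within 200 bp in both replicates, against 21 (56.8%) for fz and 39.4% of all pooled peaks. Many relaxed peaks of fz2 were thus found in a single replicate. Its strongest, with a signal value of 60.7 at rank 3584, lay 10 bp from the TSS of rept, which encodes an ATPase of chromatin complexes, at the very edge of the window. The next, at 19160145 and 19178074, lay inside fz2 with values of 59.4 (rank 3701) and 59.3 (rank 3712). Replicate 2 alone ranked 2 peaks of the window among its 3203 strongest, at 19166541 inside fz2 (rank 2730) and at rept (rank 2813). In replicate 3 the best peak of the window ranked 3688, which falls outside that limit.

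The arm gene (X, 1891401 to 1900646, reverse strand) had 4 IDR summits in its window, or 81.2 per Mb, and none in its body. Of 12872 genes with windows within 20% of the same length, which are most of all genes, 12.7% had as many or more. The 4 arm summits all lay at promoters of neighbours. The strongest, at 1879756, was 18 bp from the TSS of CG14818, with a signal value of 54.0 (rank 1688) in replicate 2 and 79.7 (rank 688) in replicate 3. The others lay 23 bp from the TSS of CG14817, 113 bp from that of mRpL16, a mitochondrial ribosomal protein gene, and 14 bp from that of Edem1, which acts in the removal of misfolded glycoproteins. Their ranks were 1760, 1794 and 3794 in replicate 2, and 4029, 3262 and 2134 in replicate 3. None of these 3 stood among the 3203 strongest of both replicates. The IDR summit nearest to an own start of arm was that at Edem1, 7319 bp away, and 15 other protein-coding genes overlap the window. At the starts of arm themselves, the best pooled summit ranked 7241 and the best of replicate 2 ranked 5909, while replicate 3 listed none.

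Agreement of the replicates was read from the nearest summit in each. Of the 20 summits, 19 had one within 200 bp in both replicates (95.0%, against 98.3% of all IDR peaks). The IDR list was itself derived from these replicates, so such nearness follows largely from how the list was made. The exception was the outer Wnt6 summit, whose interval still overlapped a peak of replicate 2. Among the 3203 strongest of a replicate, 16 were found in replicate 2, 15 in replicate 3 and 11 in both (55.0%, against 67.6% of all IDR peaks). Across the 19 shared summits the signal values of the replicates had a Spearman's rho of 0.14, against 0.58 over 3148 IDR peaks. All but 1 of the 20 summits have pooled signal values between 70.3 and 130.8, peaks are not independent replicates and the IDR list was chosen by the pooled signal, so rho is a description only. The strong replicate peaks of the windows with no IDR summit within 200 bp numbered 3 in replicate 2, of which 2 were in the fz2 window and 1 in fz, and 2 in replicate 3, near arm and near Wnt5.

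**Figure D3:**
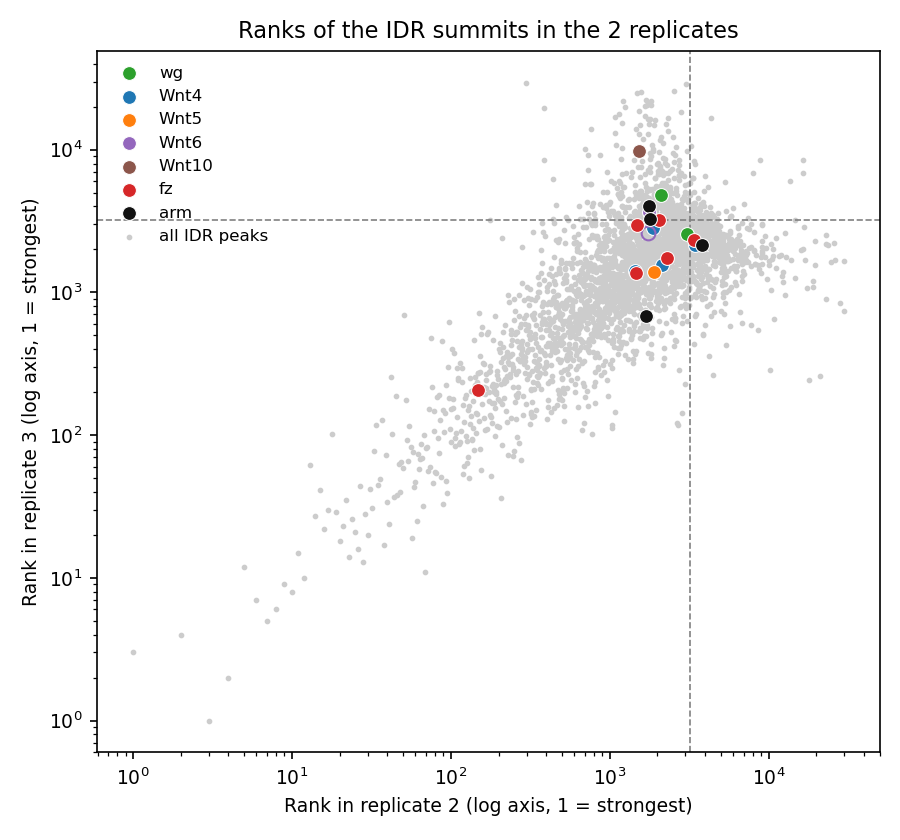
Rank of each IDR summit in replicate 2 (horizontal) and replicate 3 (vertical), both log axes with 1 the strongest. Coloured points are the 20 summits by the member gene with the nearest start, the open circle is the outer Wnt6 summit with no replicate 2 summit within 200 bp, grey points are the IDR peaks that each replicate also lists, at most 200 bp away, and dashed lines mark rank 3203; 11 coloured points with a filled symbol lie inside both lines, and the Wnt10 window's summit stands at ranks 1530 and 9801.

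Sequence was not used to choose the genes, but the motifs were chosen with earlier results of these data known. The forkhead letters TAAACA stood within 100 bp of 3 of the 20 summits (15%), against 26.6% of all IDR summits, and in 5 of the 40 flank windows 600 bp to each side (12.5%), against 18.4% of all flanks. The longer GTAAACA stood at 0 of 20, against 7.24% of all IDR summits, and the shorter AAACA at 14 of 20 (70.0%, against 68.8%). These forms overlap, since each contains the next shorter one. The TAAACA matches were at fz and Wnt5. The fz summit at 14366279 had 3 of them, a pair of which overlap as TGTTTAAACA at 10 and 6 bases before the summit. The other fz match lay at the summit upstream of the gene, 79 bases from it, and the Wnt5 match 96 bases from the summit. The strongest fz summit, printed above, held none.

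The other motifs were searched on both strands in the same 201 bases. CTTTGAT stood at 1 summit, inside Wnt4 (5.00%, against 3.43% of all IDR summits). TATCGATA stood at 2 (10%, against 4.09%), at the promoters of CG14817 and mRpL16 near arm. CAGGTA stood at 3 (15%, against 4.40%), in intron 1 of Wnt4, upstream of Wnt4 and in the window of Wnt10, so all 3 lie in the ligand stretch of 2L. It also stood in 12.5% of the 40 flank windows, against 4.57% of all flanks. GAGAG, the core of the GAGA factor site, stood at 5 (25%, against 23.7%), and GTCACACT, the core of the site of the promoter factor M1BP, at none (2.44% of all). With 20 summits each match is 5.00% of the set. Median G and C content was 36.8% in these windows and 36.3% in those of all IDR summits.

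Of 49 other genes of the pathway, 43 had an IDR summit within 20 kb (87.8%) and 9 had one within 500 bp of an own TSS (18.4%), against the backgrounds of 69.1% and 15.2% given above. Their windows differ in length, some share summits, and no share was taken for genes with windows of like length. The 49 genes were also chosen with earlier results of these data known. For scale, 68.8% of genes with windows like that of wg (12864 genes), 76.8% like that of Wnt6 (1931) and 71.9% like that of fz (128) had a summit. The set for wg holds most of all genes. The median number of summits per window was 2 for these genes, 1.5 for the 10 genes above and 1 over all genes. By group, all 10 cytoplasmic components, all 9 other receptors, all 7 nuclear factors, 6 of 8 secretion and extracellular genes, 6 of 7 planar polarity genes and 5 of 8 Wingless target genes had a summit.

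Of the 9 genes with a summit within 500 bp of an own TSS, 5 were among the 10 cytoplasmic components: gish and sgg, which encode kinases, Apc and Apc2, which act in the destruction complex, and nkd, a feedback inhibitor. For Apc2 no summit of the window had an own TSS as the nearest, so its promoter summit lay nearer to another gene's start. The strongest summit in the Apc window lay 82 bp from the TSS of WASp. The gish summit, 145 bp from its start, ranked 28 of the IDR list (13 in replicate 2 and 62 in replicate 3), and the sgg summit, at 223 bp, ranked 122 (85 and 191). Among nuclear factors gro, which encodes a corepressor, had one at 122 bp (rank 94) and nej another, though the strongest in the nej window (rank 103) lay 188 bp from the TSS of Ptpmeg2. The only summit of lgs, which encodes an adaptor of Armadillo, was intergenic, 19090 bp from its start (rank 176). In the other groups, dlp, a glypican gene, and Dll, a homeobox target, were the genes with such a summit. None of the 9 other receptors had one. For arr, the co-receptor, the strongest of 5 summits ranked 464, with the TSS of mars the nearest. The strongest in the window of Drl-2 ranked 13 but lay 11938 bp from the TSS of CG13323, and that of otk and otk2, shared, lay 76 bp from Mppe (rank 181). The strongest summits for Tnks (rank 163) and Axn (rank 246) lay at promoters of jigr1 and CG7943, and those for pygo (rank 96) and Vang (rank 31) at promoters of CG1635 and GstE13. In planar polarity, the strongest summit for dgo (rank 88) lay 549 bp from the TSS of wde, that of ds (rank 649) 556 bp from its own TSS and that of stan (rank 1089) 87 bp from CG7220. In secretion, the strongest for sfl (rank 351) lay 66 bp from Bulli, that for dlp (rank 372) 6297 bp from CG43121, that for Notum (rank 382) 655 bp from Diap1 and that for por (rank 1644) 1653 bp from CrebB. Among the targets besides slp1 and slp2, that for rho (rank 1664) lay 520 bp from stet and that for Ubx (rank 2520) 154 bp from CG10324. The Dll summit, 121 bp from its start, ranked 2784. The replicates differed at Dll (rank 1867 in replicate 2 and 10170 in replicate 3) and at the Ubx summit (7225 and 1677). Genes with none were wls and boca of secretion, ft of planar polarity, and the targets en, lab and Ser.

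**Figure D4:**
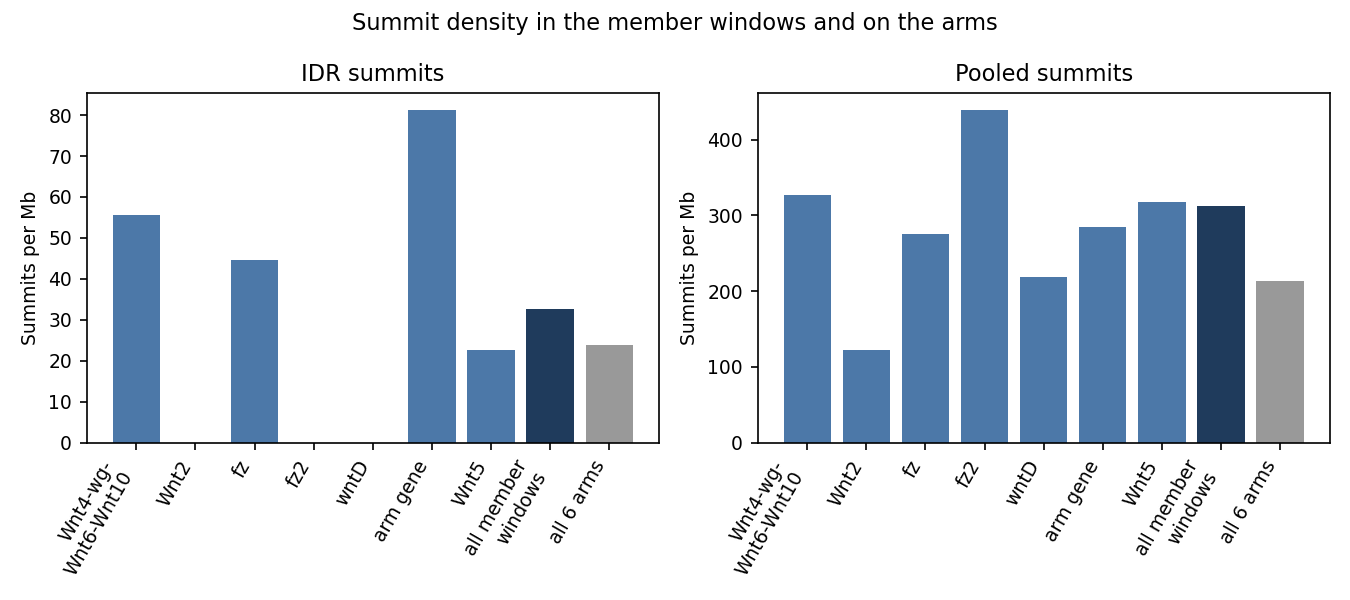
IDR summits per Mb (left) and pooled summits per Mb (right) in the windows of the 10 genes, in all windows joined and over the 6 arms; the overlapping windows of wg, Wnt4, Wnt6 and Wnt10 are drawn as a single bar. Bars start at 0 and have no replicate error, since both lists pool the replicates. The Wnt4 to Wnt10 stretch, fz and arm stand above the arms' 23.9 IDR summits per Mb, Wnt2, fz2 and wntD are at 0, and fz2 has the highest pooled density, 439.0 per Mb.

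The limits of the lists passed close to some of these peaks. The weakest IDR signal was 65.4, the weakest IDR summit of the windows had 70.3, and the strongest pooled peak of the windows below the limit had 60.7. At 20 kb, the summit in CG5160 fell just inside the Wnt10 window at 19658 bp, and the intronic wg summit just outside that of Wnt6 at 20039 bp. For arm the nearest IDR summit outside lay 29478 bp away at the promoter of deltaCOP, a coatomer gene, and at rank 416 it was stronger than any of the 4 inside.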

How the data were processed

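ChIP-seq peak lists on dm6 from 2 samples were used. Per the deposited readme files, the authors called a relaxed list for each replicate and one on both together against a control, and derived the IDR list from these. The caller, its version, the IDR threshold and read numbers are not given in the sources used here. The deposited signal value is a score of the authors' caller and was used for ranks within each list. Deposited q values, given as -log10, were at their ceiling of 3.69 in 2452 IDR peaks, so they were not used for ranks. The lists on dm3 and the control were not analysed here.

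Summits were taken as the peak start plus the deposited offset, 1-based. All 28637 pooled and 3203 IDR peaks lay within the arms of the Release 6 assembly (RefSeq), from which sequences were read. Gene models were Ensembl release 115 (BDGP6.54). Classes used protein-coding genes only, in the order promoter (500 bp), exon, intron, intergenic, and introns are numbered in the transcript with the longest span. Analyses ran in Python 3.11.15 with pandas 2.3.3 and numpy 2.4.6. Assignment and motif search were tested on simulated data. No test was made across genes, since the 10 genes, the 49 pathway genes and the motifs were chosen with earlier results of these data known. By rule the text names the 10 genes, the gene nearest to each of their IDR summits and, for each pathway group, the 4 genes of strongest binding and as many as 4 that had no IDR summit. Other pathway genes with a summit at their own start were named after their values were seen.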

Additional observations from a re-analysis of the deposited data

How the results depend on the processing

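No paired analysis was possible because there is 1 group. The count of genes with a summit (7 of 10) was 6 within 5 kb and within 10 kb and 4 with the stronger 50% of the IDR list. It was 5 where an own TSS had to be the nearest (17.0% of all genes) and 3 in gene bodies alone (9.06%), shares not matched for gene length or spacing. No share of all genes was taken at 5 kb, at 10 kb or for the stronger 50%, so those counts have no background here. The 20 distinct summits became 15 within 5 kb, 16 within 10 kb, 9 in bodies, 8 with an own TSS nearest and 5 in the stronger 50%. Leaving out either replicate, by taking the 3203 strongest peaks of the other, gave 6 to 8 genes and 17 to 20 summits. With replicate 2 alone fz2 had 2 peaks, with replicate 3 alone Wnt10 had 0, Wnt5 2 and wg 2, and Wnt6 had 1 with either. The count for fz was 6 with either replicate alone. Wnt6 remained the only gene with a summit at its own start within 250 and 1000 bp and with either replicate. The other pathway genes numbered 43 of 49 with either replicate, 41 within 10 kb, 34 with the stronger 50%, 29 within 5 kb, 20 with an own TSS nearest and 14 in bodies. These counts likewise have no share of all genes beside them, except with an own TSS nearest (17.0%) and in bodies (9.06%). Shared summits numbered 19 or 20 of 20 under other distances and the overlap rule, and 11 among the strongest peaks of each replicate. TAAACA stood at 3 summits within 100 bp, 1 within 50 bp and 6 within 200 bp, and at 5 left and 0 right flanks. With GTAAACA the count was 0 and with AAACA 14. The cause of these shifts was not tested, beyond the smaller or larger window, list or motif that each setting uses by construction. With read depth unknown, a window without a summit shows only that none passed the authors' limits.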

Other observations

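The relaxed lists of the 2 replicates differed in number over the windows. The joined windows held 219 summits of replicate 2 and 168 of replicate 3, or 356.5 and 273.5 per Mb, where each list held 224.1 per Mb over the arms. The difference lay largely in fz2, with 71 summits of replicate 2 and 37 of replicate 3, arm, with 25 and 10, and fz, with 49 and 38. The windows of wg, Wnt2, Wnt6, Wnt10 and wntD had more summits of replicate 3, by up to 9. With 1 sample for each value these are descriptions of the lists.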
